A study of Homo sapiens with 4 samples.

Results

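The MYC, MAX and MXD network is a group of transcription factors of the basic helix-loop-helix leucine zipper class that compete for a small set of shared partners. MYC, MYCN and MYCL bind DNA as dimers with MAX and raise transcription of genes of ribosome production, nucleotide synthesis and the cell cycle. MNT, MGA and the MXD proteins (MXI1, MXD3 and MXD4 here) also dimerize with MAX and mostly repress the same kind of target, and MLX is a MAX-like partner that joins some of these repressors with the glucose-sensing factors MLXIP and MLXIPL. In neuroblastoma, MYCN is the family member best known for gene amplification, and lines without that amplification commonly express MYC instead.

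The members were the rows of the count table whose symbol was MYC, MYCN, MYCL, MAX, MNT, MLX, MGA, MXI1, MXD3 or MXD4, which gave 10 of the 24014 genes. They were measured by RNA-seq in SK-N-SH, an established line from human neuroblastoma in which adrenergic, neuroblast-like cells grow beside flat mesenchymal ones. Controls were cells labelled wild type that had received a lentiviral vector without an insert (n = 2 libraries), and AP1AR-DT_OE cells had received a recombinant lentivirus for the long noncoding RNA AP1AR-DT, also named AC109347.1 (n = 2 libraries). All 4 libraries thus came from 1 line that had been exposed to a lentivirus, and the labels give no dose, time after infection or separate culture for a library, so p-values measure only the spread between these libraries, which may be technical. For AP1AR-DT_OE replicate 2 the title names AC109347.1 but the genotype and treatment fields AC109347.2, and the title was followed.

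The libraries held 21988065 to 26184599 counts. AP1AR-DT had 3 and 18 counts in control cells and 680 and 1065 in AP1AR-DT_OE cells. Markers of both SK-N-SH cell states were present, with 11 of 12 listed adrenergic and 10 of 10 mesenchymal ones in the table. The summed normalized read count of the adrenergic markers ranged from 25232 to 31558 over the libraries. That of the mesenchymal markers ranged from 148712 to 202141. Of 10 markers of other cell types, 3 were in the table (CD68, EPCAM and GFAP), with a sum of 78.7 to 209.6. Low counts piled up at 4, so about 4 counts were taken to stand for 1 read pair. By that estimate a gene with 12 counts or fewer rested on at most 3 read pairs.

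Sequences upstream of the member genes are shown because MYC-MAX, MNT-MAX and MXD-MAX dimers recognise the same E-box, CACGTG, which reads alike on both strands. RefSeq promoters (300 bases, from 250 before to 50 after each annotated start, GRCh38.p14) were present for 9 of the 10 members. The member without one was MYC, whose promoter was therefore not searched. The E-box was found for MLX, MNT and MXD4, that is for 3 of 9 members, or 33.3%. Counted by promoter it was in 3 of the 14 promoters of members (21.4%), and in 2548 of all 35116 promoters (7.26%). In the windows below, which run 5′ to 3′ on the strand of the gene, capitals mark the E-box, and the match describes letters and not a bound site.
MLX, chr17:42567023-42567082, + strand, E-box 50 to 45 bases before the start: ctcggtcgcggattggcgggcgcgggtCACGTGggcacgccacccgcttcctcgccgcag
MNT, chr17:2401221-2401280, - strand, E-box 193 to 188 bases before the start: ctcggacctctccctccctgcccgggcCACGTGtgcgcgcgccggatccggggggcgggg
MXD4, chr4:2262315-2262359, - strand, E-box 238 to 233 bases before the start: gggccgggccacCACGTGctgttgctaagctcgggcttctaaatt

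None of the 10 network genes was called between AP1AR-DT_OE and control cells, and MYC was the dominant MYC-family transcript in every library. A call needed an adjusted p below 0.05 in DESeq2, with adjustment over all genes, and the same test called 33 of 24014 genes (0.137%). At an unadjusted p below 0.05 there were 0 of 10 members against 196 of all genes (0.816%), with 0.473 as the smallest unadjusted p of a member. In bulk RNA of this kind, a change in the share of adrenergic or mesenchymal cells and a change in RNA per cell cannot be told apart.

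MYC (ENSG00000136997, chromosome 8) had normalized read counts, that is counts divided by the size factor of the library, of 654.9 in control 1, 661.1 in control 2, 445.3 in AP1AR-DT_OE 1 and 864.5 in AP1AR-DT_OE 2. The controls lay between the AP1AR-DT_OE libraries, so the groups overlapped. Their means were 658 ± 4.38 (SD, n = 2) and 654.9 ± 296 (SD, n = 2), and the log2 fold change of AP1AR-DT_OE over control was -0.01 (SE 0.50, 95% interval -0.996 to 0.98, DESeq2 adjusted p = 1). That interval still holds changes of nearly 1 log2 unit in either direction. AP1AR-DT_OE 2 was 1.94 times AP1AR-DT_OE 1, with an exact 95% counting interval of 1.52 to 2.47 that covers counting error only.

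MYCN (ENSG00000134323, chromosome 2, 15940550 to 15947007), which drives the amplified form of the disease, was close to the limit of detection. It had 5 and 7 counts in control cells against 8 and 16 in AP1AR-DT_OE cells, and 3 of the 4 libraries were at or under 12 counts. Normalized, these were 5.70, 5.40, 8.78 and 15.9, with a log2 fold change of 1.15 (SE 1.61, 95% interval -1.997 to 4.31, adjusted p = 1). Both AP1AR-DT_OE values lay above both controls, but the 4 values stood on an estimated 1 to 4 read pairs a library, and a difference was not detectable at this depth.

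MYCL (ENSG00000116990, chromosome 1, 39895426 to 39902256), the family member first found in small cell lung cancer, was also scarce. Its normalized read counts were 30.8 and 37.8 in control cells against 37.3 and 15.9 in AP1AR-DT_OE cells. The first AP1AR-DT_OE library lay among the controls and the second below them, and the log2 fold change was -0.37 (SE 0.98, 95% interval -2.30 to 1.56).

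Levels of different genes were compared as normalized read counts per kilobase of the longest annotated transcript. On this scale MYC was 80.8 times MYCN in control 1, 86.0 times in control 2, 35.6 times in AP1AR-DT_OE 1 and 38.2 times in AP1AR-DT_OE 2. Counting read pairs, the exact 95% intervals of these ratios were 17.9 to 4021, 20.6 to 624, 9.66 to 299.7 and 14.7 to 141.7, so every library held more MYC than MYCN but the size of the ratio was poorly fixed. On the log2 scale the ratio differed by -1.17 between AP1AR-DT_OE and control, with -1.18 between the libraries numbered 1 and -1.17 between those numbered 2. Both AP1AR-DT_OE ratios were below both control ratios, and the exact two-sided permutation p was 0.333, the smallest that 2 against 2 libraries can give (adjusted p = 1 over 5 ratios). Between libraries of the same number, the log2 ratio of AP1AR-DT_OE to control was -0.56 and 0.39 for MYC, and 0.62 and 1.56 for the few read pairs of MYCN.

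**Figure D1:**
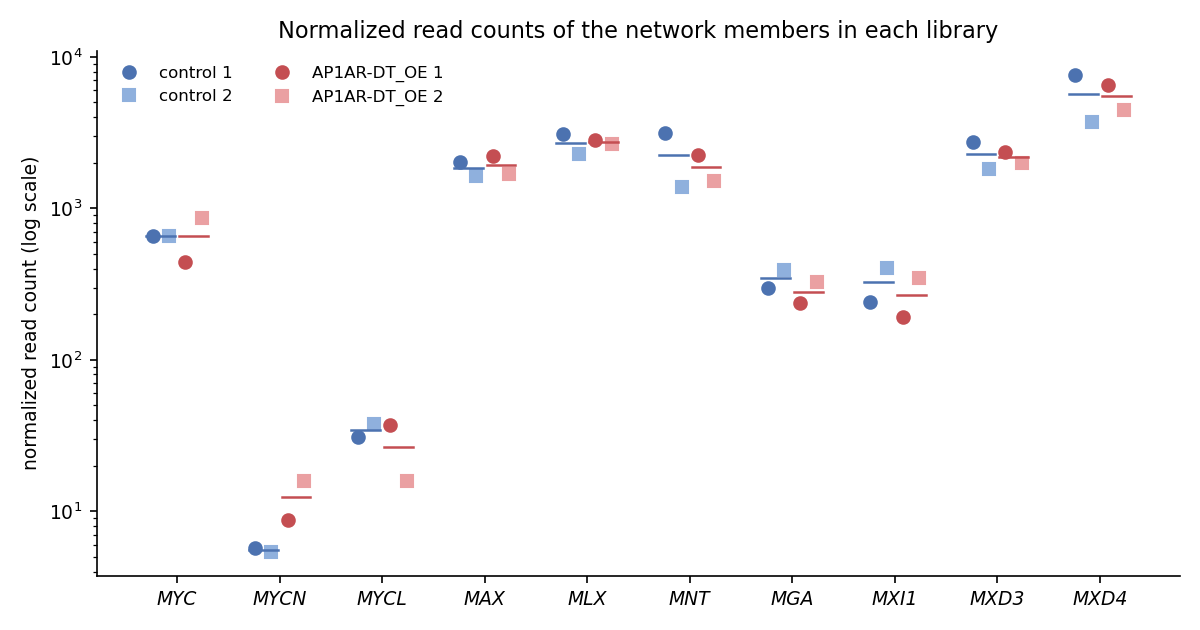
Normalized read count (log10 axis) of each network gene in each library, with controls and AP1AR-DT_OE libraries in separate colours. The groups overlap for every member with a mean of at least 50, the AP1AR-DT_OE libraries of MYC lie on either side of the controls at 445.3 and 864.5, and MYCN sits between 5.40 and 15.9.

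MAX (ENSG00000125952, chromosome 14, 65006174 to 65102695), the common partner of the MYC and MXD proteins, had normalized read counts of 2038 and 1647 in control cells against 2205 and 1676 in AP1AR-DT_OE cells. In each group the library numbered 1 was the higher one, and the groups overlapped. The log2 fold change was 0.08 (SE 0.45, 95% interval -0.80 to 0.95). MAX shares exon sequence with FNTB on the opposite strand (822 bp), and whether counting used the strand is not stated, so reads of the 2 genes cannot be told apart there.

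MLX (ENSG00000108788, chromosome 17, 42567072 to 42573239), whose promoter holds the E-box nearest to a start among the 3 shown, had 3087 and 2293 in control cells against 2845 and 2669 in AP1AR-DT_OE cells. Both AP1AR-DT_OE values lay within the range of the controls, with a log2 fold change of 0.04 (SE 0.44, 95% interval -0.82 to 0.89). Its overlap with PSMC3IP on the opposite strand (775 bp) involves a gene with a mean of only 68.5 counts.

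Among the antagonists, MNT (ENSG00000070444, chromosome 17, 2384073 to 2401104), a broadly expressed repressor that pairs with MAX or MLX, had normalized read counts of 3136 and 1390 in control cells against 2234 and 1514 in AP1AR-DT_OE cells. The controls differed more from each other than the groups did, and the log2 fold change was -0.27 (SE 0.52, 95% interval -1.29 to 0.74). MGA (ENSG00000174197, chromosome 15, 41621134 to 41773081), which joins a T-box domain to its MAX-binding region and belongs to a noncanonical Polycomb complex, had 298.4 and 392.6 in control cells against 238.0 and 324.6 in AP1AR-DT_OE cells. AP1AR-DT_OE 2 lay between the controls and AP1AR-DT_OE 1 below them, with a log2 fold change of -0.30 (SE 0.51, 95% interval -1.30 to 0.71).

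MXI1 (ENSG00000119950, chromosome 10, 110207605 to 110287365), also called MXD2, had normalized read counts of 241.5 and 406.5 in control cells against 192.0 and 345.4 in AP1AR-DT_OE cells. The library numbered 2 was the higher one in both groups, and the log2 fold change was -0.27 (SE 0.56, 95% interval -1.37 to 0.83). MXD3 (ENSG00000213347, chromosome 5, 177301461 to 177312757), an MXD protein linked to proliferating cells, had 2736 and 1824 in control cells against 2347 and 1988 in AP1AR-DT_OE cells. Here both AP1AR-DT_OE values lay within the control range, with a log2 fold change of -0.07 (SE 0.45, 95% interval -0.96 to 0.82). MXD3 shares 926 bp of exon with RAB24 on the same strand and 1148 bp with PRELID1 on the opposite strand, and its level is therefore uncertain. Summed with RAB24 its log2 fold change was -0.04.

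MXD4 (ENSG00000123933, chromosome 4, 2247432 to 2262109), an MXD repressor typical of resting and differentiated cells, was the most abundant member, with normalized read counts of 7637 and 3737 in control cells against 6536 and 4466 in AP1AR-DT_OE cells. The AP1AR-DT_OE libraries again fell inside the control range, and the log2 fold change was -0.05 (SE 0.50, 95% interval -1.02 to 0.93).

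For the 8 members with a mean normalized read count of 50 or more, log2 fold changes ranged from -0.30 to 0.08. Their SEs were 0.44 to 0.56. The median of their absolute log2 fold changes was 0.07, beside 0.12 over all 13298 genes of that level. In 0 of 8 members were both AP1AR-DT_OE libraries below both controls, a pattern seen in 4.35% of all genes of that level, and in 0 of 8 were both above, against 5.11%. Of the 10 members, 4 had the same sign of log2 ratio in the libraries numbered 1 and in those numbered 2, namely MYCN, MAX, MGA and MXI1. The share over all genes was not computed, so this count is a description only, and MYCN rested on an estimated 1 to 4 read pairs a library. With SEs of this size the intervals leave room for changes of about 1 log2 unit in MYC, MAX, MNT, MGA, MXI1, MXD3 and MXD4. After the correction for GC content described below, the SEs of these 8 members were smaller, from 0.24 (MLX) to 0.40 (MYC). They were then 0.29 for MNT, 0.35 for MGA, 0.36 for MXI1 and 0.27 for MXD4.

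**Figure D2:**
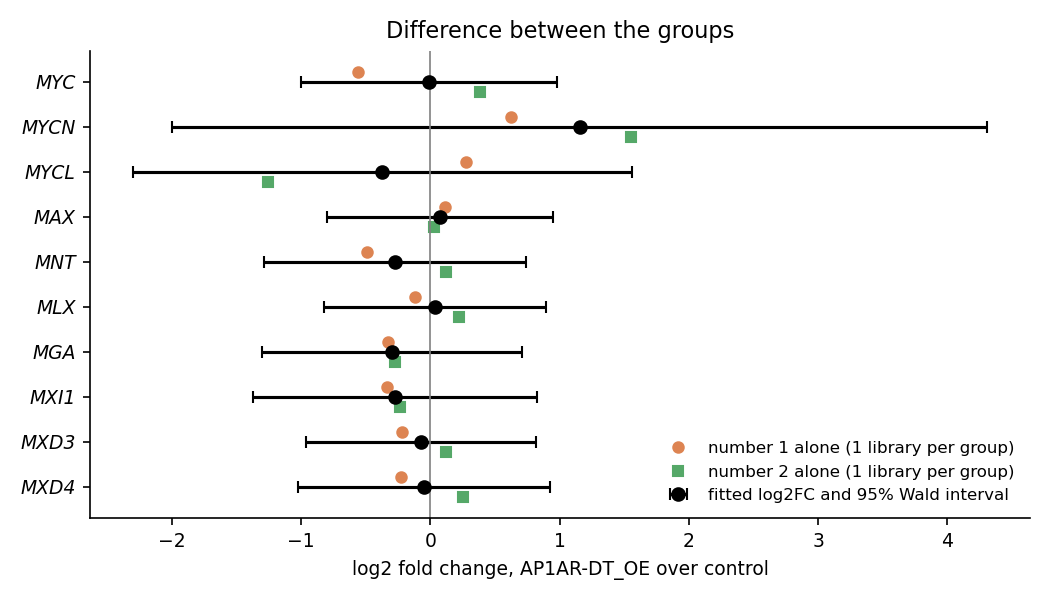
Log2 fold change of AP1AR-DT_OE over control for each member (points, with 95% DESeq2 intervals as bars). All 10 intervals include 0, and those of MYCN (-1.997 to 4.31) and MYCL (-2.30 to 1.56) are the widest.

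Per kilobase, the order of mean levels over the 4 libraries was MXD4 (1323), MLX (1053), MXD3 (975.7), MAX (599.5), MNT (420.0), MYC (176.4), MXI1 (85.4), MGA (21.5), MYCL (8.64) and MYCN (3.42). The ranges over libraries overlapped between MXD4 and MLX, MLX and MXD3, MAX and MNT, and MYCL and MYCN. Within libraries, MXD4 exceeded MLX, MLX exceeded MXD3 and MYCL exceeded MYCN in 3 of 4, so the order of these neighbours was not the same in every library, whereas MAX exceeded MNT in 4 of 4 although their ranges overlapped. Ranges did not overlap between MXD3 and MAX, MNT and MYC, MYC and MXI1, MXI1 and MGA, or MGA and MYCL. MXD3 and MAX share exon sequence with other genes, as given above. Their places in this order, and the summed level used next, are uncertain to that extent. Of the summed per-kilobase level of the network, MXD4 took 23.8 to 31.4%, MAX 11.2 to 14.1%, MYC 2.38 to 5.58% and MYCN 0.0378 to 0.146%.

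**Figure D3:**
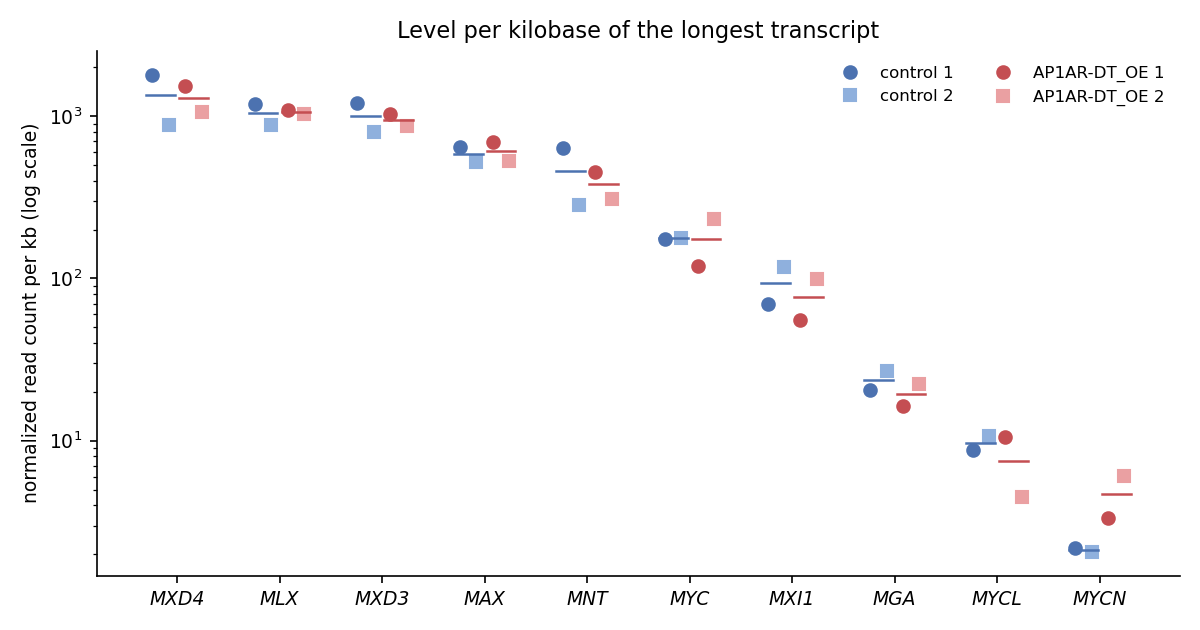
Normalized read count per kilobase of the longest transcript (log10 axis) for each member, ordered by its mean over the 4 libraries, with a point for each library. MXD4, MLX and MXD3 lie highest, MYC lies in the middle at a mean of 176.4, and MYCN is lowest at 3.42.

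The balance of activators and antagonists was taken within each library as the summed per-kilobase level of MYC, MYCN and MYCL over that of MNT, MGA, MXI1, MXD3 and MXD4. On the log2 scale it was -4.32 and -3.47 in control cells against -4.54 and -3.28 in AP1AR-DT_OE cells. Antagonist transcripts, as counted, were thus the more abundant in all 4 libraries, and the AP1AR-DT_OE values lay on either side of the controls. The antagonist sum includes MXD3, whose level is uncertain because of its exon overlaps. The group difference was -0.01 (exact two-sided permutation p = 1). MYC over MAX on the same scale was -1.88 and -1.55 in control cells against -2.55 and -1.19 in AP1AR-DT_OE cells, again with AP1AR-DT_OE on both sides of the controls.

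In 8 of 8 members with a mean of 50 or more, the libraries of each group differed from each other by more than the fitted difference between groups. The share of all genes with this pattern was not computed, so whether the count is particular to the members was not tested. For MYC it rested on small log2 values, 0.0136 between the controls and -0.0064 between the groups. The log2 ratio of library 2 to library 1 was -1.17 in controls and -0.56 in AP1AR-DT_OE cells for MNT, and -1.03 and -0.55 for MXD4. For MXI1 it was 0.75 and 0.85, and for MGA 0.40 and 0.45. The GC-rich transcripts (MNT at 61.3% and MXD4 at 57.6%) were thus lower and the GC-poor ones (MXI1 at 43.8% and MGA at 42.2%) higher in the libraries numbered 2 of both groups. Over the 8 members with a mean of at least 50, Pearson's r of this log2 ratio with GC content was -0.92 in controls and -0.78 in AP1AR-DT_OE cells (Spearman's rho -0.90 and -0.71), as a description across genes that share the same libraries. After a GC correction of each library it was -0.03 and -0.41.

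For MYC, at 48.8% GC, the log2 ratio of library 2 to library 1 was 0.01 in controls and 0.96 in AP1AR-DT_OE cells. After the GC correction, MYC had 662.7 and 673.6 in control cells against 441.6 and 883.9 in AP1AR-DT_OE cells, and the ratio within AP1AR-DT_OE cells was 1.00 on the log2 scale. Of the 13298 genes with a mean of at least 50, 5.98% had an absolute ratio at least as large after the correction and 13.8% before it. The groups still overlapped for 8 of 8 members after the correction. The share over all genes was not computed there. Before the correction the AP1AR-DT_OE libraries were both below both controls in 4.35% of all genes of that level and both above in 5.11%, so most genes overlapped.

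**Figure D4:**
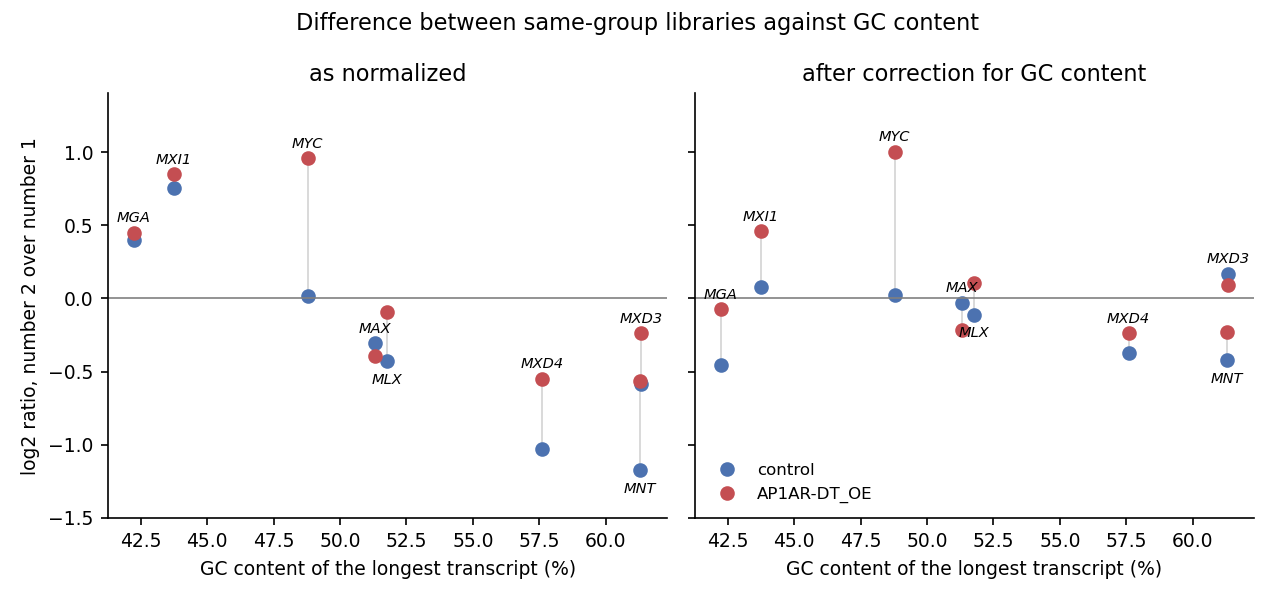
Log2 ratio of library 2 to library 1 within controls and within AP1AR-DT_OE cells against GC content of the longest transcript (%), for the 8 members with a mean of at least 50, as normalized (left) and after the GC correction (right). On the left, GC-poor MXI1 and MGA lie above 0 and GC-rich MNT and MXD4 below 0 in both groups, and MYC moves from 0.01 in controls to 0.96 in AP1AR-DT_OE cells.

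The rest of the network was sparse or likewise not called. MLXIP, the MLX partner that senses glucose phosphates, had normalized read counts of 6360 and 2892 in control cells against 5231 and 3086 in AP1AR-DT_OE cells (log2 fold change -0.15). MXD1, the founding MXD repressor, had 42.1 and 90.3 in control cells against 40.6 and 90.3 in AP1AR-DT_OE cells (log2 fold change -0.02). MLXIPL was at 3.42 to 10.97, at or under the limit of detection in these cells.

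Of 15 cofactors through which MYC or MXD proteins act on chromatin, all had a mean of at least 50 and 0 were called, with a median log2 fold change of -0.05 beside -0.02 over all genes. KAT5, an acetyltransferase recruited by MYC, had 1629 and 192.1 in control cells against 368.6 and 837.7 in AP1AR-DT_OE cells, so that the controls spanned the AP1AR-DT_OE values (log2 fold change -0.59). NCOR1, a corepressor, had 864.4 and 735.9 against 578.1 and 643.2 (log2 fold change -0.39), with both AP1AR-DT_OE libraries below both controls. At the other end, WDR5, a chromatin anchor of MYC, had a log2 fold change of 0.15, and SIN3A, the corepressor that MXD proteins bind, of 0.04. The 11 genes that set the turnover of MYC protein also gave 0 calls and a median of -0.07. Among them were PPP2R5A, a regulatory subunit of the phosphatase PP2A, at -0.41, FBXW7, the ubiquitin ligase subunit that binds phosphorylated MYC, at -0.29, and AURKA, the kinase that stabilises MYCN, at 0.06. In that list GSK3B, a kinase that marks MYC for degradation, was the 1 gene of 10 with both AP1AR-DT_OE libraries below both controls (log2 fold change -0.20), as NCOR1 was the 1 of 15 cofactors, beside 4.35% of all genes.

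MYC targets of growth were measured for 40 of 42 listed genes, and 0 of 40 were called, with a median log2 fold change of 0.03. SRM, spermidine synthase, had normalized read counts of 2819 and 1932 in control cells against 3092 and 2454 in AP1AR-DT_OE cells (log2 fold change 0.22). PPAT, the entry enzyme of purine synthesis, had 124.1 and 297.0 in control cells against 111.9 and 211.4 in AP1AR-DT_OE cells (log2 fold change -0.38), and RRN3, an initiation factor of RNA polymerase I, had a log2 fold change of -0.33. Groups overlapped for these 3 genes. In 2 of the 40, the nucleolar protein gene NOP56 and the nucleoside diphosphate kinase gene NME1, both AP1AR-DT_OE libraries lay above both controls, beside 5.11% of all genes, and in 0 of 40 were both below. NOP56 had 1655 and 1609 in control cells against 1676 and 1815 in AP1AR-DT_OE cells, and NME1 had log2 fold change 0.09.

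PPAN, a ribosome biogenesis gene on that list, had 6 and 0 counts in control cells against 2 and 782 in AP1AR-DT_OE cells (log2 fold change 6.84, unadjusted p in DESeq2 0.0503, not called). The readthrough gene PPAN-P2RY11, which contains its exons, had 1370 and 1022 counts in control cells against 1391 and 0 in AP1AR-DT_OE cells. Summed, the pair had 1376, 1022, 1393 and 782 counts, so all counts of AP1AR-DT_OE 2 stood under PPAN and nearly all of the other libraries under the readthrough gene.

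Genes that MYC is known to repress gave 0 calls among 9, with a median log2 fold change of 0.03. The 8 with a mean of 50 or more, which the median covers, ran from GADD45A, a growth arrest gene, at -0.20 and CDKN1B, a cyclin-dependent kinase inhibitor, at -0.16 to PDGFRB at 0.15 and THBS1, thrombospondin, at 0.16. The other one, CDKN2B, a cyclin-dependent kinase inhibitor below that mean, had 54.7 and 50.1 in control cells against 36.2 and 22.8 in AP1AR-DT_OE cells (log2 fold change -0.83, SE 0.86), with both AP1AR-DT_OE libraries below both controls. Of 5 noncoding genes near MYC or MYCN that were listed, 1 was in the table, PVT1, with 183.4 and 234.5 in control cells against 194.1 and 260.0 in AP1AR-DT_OE cells (log2 fold change 0.12).

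**Figure D5:**
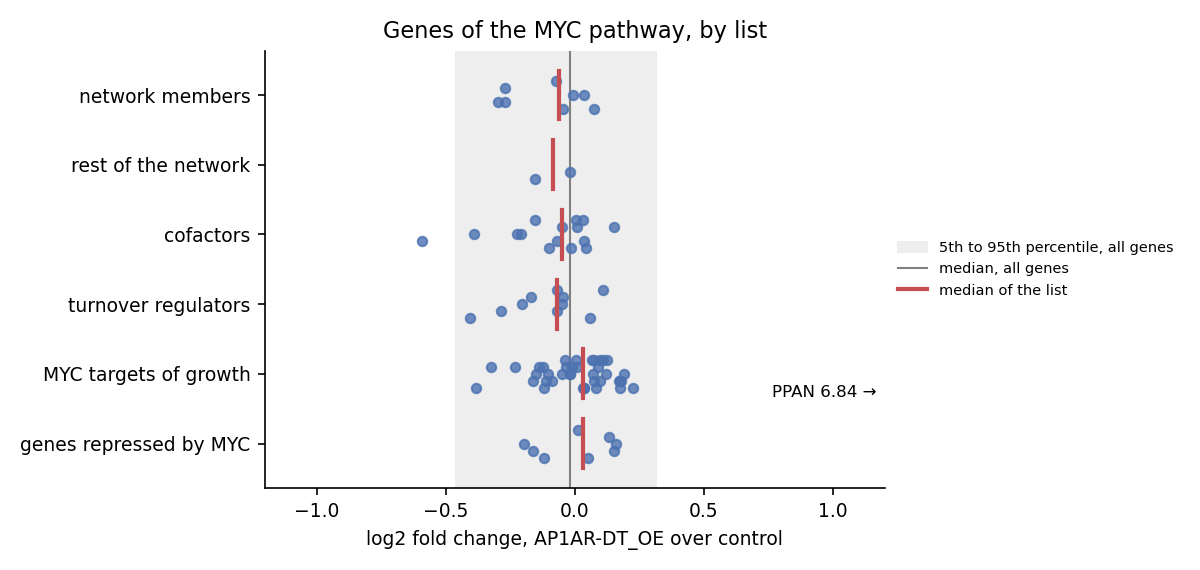
Log2 fold change of AP1AR-DT_OE over control for each gene with a mean normalized read count of 50 or more. Shown are the members, the rest of the network, cofactors, turnover regulators, growth targets and repressed genes. The median of each list is marked in red and that of all genes in grey, with PPAN beyond the axis at 6.84. The medians of these lists lie between -0.09 and 0.03, close to the -0.02 of all genes, and 0 of their genes were called.

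Of the markers of the 2 cell states, 11 of 12 listed adrenergic and 10 of 10 mesenchymal ones were in the table. Of these, 0 were called. Adrenergic markers with a mean of 50 or more had log2 fold changes from -0.07 (ISL1) and -0.04 (GATA3) to 0.14 (CHGB) and 0.23 (DBH). Among mesenchymal markers SNAI2 was at -0.41, COL1A1 at 0.14 and COL1A2 at 0.51. PRRX1, a transcription factor of the mesenchymal state, had the lowest log2 fold change among them, at -2.02 (unadjusted p in DESeq2 0.000987, adjusted p = 0.431). Normalized read counts of PRRX1 were 2770 and 11358 in control cells against 1241 and 2246 in AP1AR-DT_OE cells. Both AP1AR-DT_OE libraries lay below both controls, with control 2 far above the others. Among markers with a mean of 50 or more, 1 of 10 adrenergic (GATA3) and 1 of 10 mesenchymal ones (PRRX1) had that order. It was seen in 4.35% of all genes of that level, and 0 markers of either list had the reverse order. CD68, the single marker of another cell type with a mean that high, was at -0.45. The part of cell states in the values of MYC was not tested.

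The genes whose pattern over the 4 libraries was most like that of MYC were PDK3, N6AMT2 and LRRC37A3. PDK3, a pyruvate dehydrogenase kinase, had 52.4 and 52.5 in control cells against 36.2 and 70.5 in AP1AR-DT_OE cells, so its AP1AR-DT_OE libraries also lay on both sides of the controls. The root mean square differences of the 3 genes from MYC were 0.018, 0.038 and 0.042 on the centred log2 scale (pseudocount 1), over 13297 other genes. With 4 libraries such likeness describes these libraries alone. MYCN was below the mean of 50 needed for the same search.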

How the data were processed

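RNA of 2 control and 2 AP1AR-DT_OE libraries was made with the Illumina TruSeq kit. The authors deposited whole-number read counts per gene, not normalized. The paper's methods name HISAT2 on hg19 and StringTie with its count script, while the submitters' processing notes name TopHat2 2.0.4, SAMtools, HTSeq, Cuffdiff and edgeR 2.6.12. The table's gene coordinates are GRCh38. The authors' own fold changes and p-values in the table were not used. Low counts piled up at 4 (3287 entries, against 2136 at 3 and 1509 at 5), hence about 4 counts a read pair.

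Counts of all 24014 genes were tested with DESeq2 1.42.0 in R 4.3.3 (median-of-ratios size factors, two-sided Wald test, no covariate, default filtering, Benjamini-Hochberg, threshold 0.05). Ratios were tested by exact permutation in SciPy 1.17.1. Length and GC content came from the longest transcript in GENCODE mapped to GRCh37, matched for 23954 genes. The GC correction removed a lowess trend (span 0.3). Procedures were tested on simulated data. The members and lists were chosen with earlier results of these data known. Named genes were AP1AR-DT, all members, from each list any gene called and the 2 largest rises and 2 largest falls with a mean of at least 50, and 3 genes most like MYC. 1 gene that this rule names is not reported here. MLXIPL, CDKN2B, GSK3B, NOP56, NME1, PPAN-P2RY11, RAB24 and the other overlapping genes were named after their values were seen. Alternatives were edgeR 4.0.16, TMM factors, low-count filters, counts divided by 4, the GC correction, the replicate block, exon-union length, MXD3 summed with RAB24 (chosen after seeing the data) and leaving out each library. Exact intervals cover counting error only, because PCR copies of a molecule are not independent.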

Additional observations from a re-analysis of the deposited data

How the results depend on the processing

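No member was called under any alternative, with a smallest unadjusted p of 0.0863 (MNT) and a smallest adjusted p of 0.9994. MYCN was removed before the fit by the low-count filter used with edgeR and by the filter of 10 counts in 2 libraries. The number of all genes called, 33 in DESeq2, was 0 with edgeR, 15 with counts divided by 4, 55 with the GC correction, 60 with the GC correction and the replicate block together, and 45 to 90 when 1 library was left out. With the replicate block alone it was 37, of which 16 were among the 33, and with edgeR and the block 44. The labels do not say what the replicate numbers share, and deviations of same-numbered libraries correlated at 0.49 over 13298 genes. The log2 fold change of MXD4 turned to 0.016 with the replicate block and 0.0092 with edgeR and the block, and the group difference of activators over antagonists turned to 0.012 with the GC correction and ran from -0.64 to 0.62 when 1 library was left out. For these the cause was not tested. Leaving out 1 library, which compares 1 library with 2 and assumes that the lone one varies like the others, gave log2 fold changes of -0.58 to 0.39 for MYC, 0.65 (without AP1AR-DT_OE replicate 2) to 1.51 for MYCN, -1.12 to 0.11 for MYCL, -0.14 to 0.25 for MAX, -0.73 to 0.43 for MNT, -0.15 to 0.27 for MLX, -0.55 (AP1AR-DT_OE replicate 2 left out) to -0.07 (control replicate 2 left out) for MGA, -0.77 to 0.17 for MXI1, -0.33 to 0.25 for MXD3 and -0.46 to 0.56 for MXD4. Of 40 such values for members 14 changed sign, and of 88 under the other alternatives 2 did. The mean log2 ratio of MYC over MYCN was 5.79, or 5.15 with exon-union length, and 5.58 to 6.01 with 1 library left out. Depth limits MYCN and MYCL most.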
